A study of Mus musculus with 20 samples.

Results

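The genes that build heme and move iron were followed across the kidneys of 20 mice: 9 genes out of the 24411 in the count table, chosen by name. They were the heme synthesis enzymes *Alas1*, *Alas2*, *Alad* and *Fech*, the heme-degrading enzyme *Hmox1*, the iron exporter *Slc40a1*, the iron importers *Tfrc* and *Slc11a2*, and the ferritin heavy chain *Fth1*. *Alas2* was picked for its fall in mutants, so its difference between mutants and controls is given below as a description, without a test. All 9 members passed the filter on low counts in each comparison.

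Kidneys were harvested at P125, 1 library per mouse, with 5 mutants and 5 controls of each sex, drawn from 3 litters named A, B and C. Mutants carried *Pkd2*fl/fl with *Pax8*rtTA and *TetO*Cre, in which the *Pax8* promoter drives the doxycycline (DOX) responsive activator in renal tubules. DOX was given to all groups, at 50 mg/kg i.p. each day from P27 to P29. The controls came from the same litters and were also floxed at *Pkd2*, with either *Pax8*rtTA or *TetO*Cre absent. Mice are named by sex, genotype and number, so that FM4 is a female mutant and MC4 a male control.

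*Pkd2*, the deleted gene, had 291 ± 31.1 CPM (read counts scaled to library size; SD, n = 5) in male controls and 119 ± 9.86 (SD, n = 5) in male mutants. In females it had 257 ± 49.1 CPM (SD, n = 5) in controls and 145 ± 33.6 (SD, n = 5) in mutants. The groups did not overlap in either sex, so each library carried the *Pkd2* level of its label. Libraries held 11307741 to 19324073 counts. FM4 stood apart with 14850 genes detected, against 16776 to 17724 in the other libraries.

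Heme is built from glycine and succinyl-CoA in a chain of enzymes that starts and ends in mitochondria. ALAS makes the first intermediate, with *ALAS1* as the form of most tissues and *ALAS2* as the form of red cell precursors, and ferrochelatase, made from *Fech*, inserts the iron in the last step. Iron enters cells through the transferrin receptor (*Tfrc*) and DMT1 (*Slc11a2*), is stored in ferritin and leaves through ferroportin (*Slc40a1*), while heme oxygenase 1 (*Hmox1*) frees iron from heme. Tubules reclaim filtered iron, and several of these transcripts carry an iron-responsive element (IRE), a hairpin bound by iron regulatory proteins when iron is scarce.

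The IREs are shown because they divide the members that held a match by where the hairpin sits. In the 5′ UTR binding of the regulatory proteins is known to block translation, and in the 3′ UTR to protect the transcript. Spliced UTRs of GENCODE vM21 (GRCm38) were searched on the transcript strand for the loop CAGTGN closed by 5 paired bases, G-T pairs included, with a C just before the 5′ arm. The loop is in capitals and the sequences run 5′ to 3′. The 5′ UTR hairpins lie at chrX:150547459-150547485 on the plus strand for *Alas2*, chr19:9982733-9982759 on the plus strand for *Fth1* and chr1:45925466-45925492 on the minus strand for *Slc40a1*. The 4 *Tfrc* hairpins lie in the 3′ UTR on the plus strand at chr16:32631220-32631246, chr16:32631599-32631625, chr16:32631664-32631690 and chr16:32631711-32631737, shown as a to d in that order.
Alas2, 5′ UTR: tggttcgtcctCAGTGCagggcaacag
Fth1, 5′ UTR: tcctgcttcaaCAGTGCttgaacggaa
Slc40a1, 5′ UTR: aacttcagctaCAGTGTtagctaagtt
Tfrc, 3′ UTR, a: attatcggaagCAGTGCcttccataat
Tfrc, 3′ UTR, b: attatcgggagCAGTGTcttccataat
Tfrc, 3′ UTR, c: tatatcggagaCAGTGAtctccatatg
Tfrc, 3′ UTR, d: attatcgggaaCAGTGTttcccataat

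Of 21877 coding genes searched, 31 (0.142%) held the hairpin in a 5′ UTR and 129 (0.59%) in a 3′ UTR. A match is a description of the letters, and protein binding was not measured. *Fech* was not searched, and no match to this strict pattern was found in the other members. Hairpins that depart from it, as with an unpaired base in the stem, would be missed. The lack of a match, or the number of matches, therefore does not settle which IREs a member carries. Set side by side, the members with a 5′ hairpin had joint log2 fold changes, mutant against control, of -2.16 for *Alas2*, -0.20 for *Fth1* and 0.21 for *Slc40a1*, and *Tfrc* with its 3′ hairpins had -0.21.

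Compared per kilobase of exon, *Fth1* was the most abundant member at a mean of 1057 CPM per kb over the 20 mice. *Alad* (46.6 CPM per kb), *Alas1* (24.3), *Hmox1* (20.4), *Tfrc* (18.8) and *Slc11a2* followed, then *Slc40a1* (10.6) and *Fech* (10.2). *Alas2* was the lowest member at 4.06 CPM per kb. Neighbors in this order below *Alad* had overlapping ranges between mice, for example 8.55 to 26.2 CPM per kb for *Tfrc* and 11.8 to 26.9 for *Slc11a2*. The mouse genome holds pseudogene copies of *Fth1*, and how reads shared with them were counted is not given in the sources used here, so the *Fth1* level is uncertain to that extent.

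**Figure D1:**
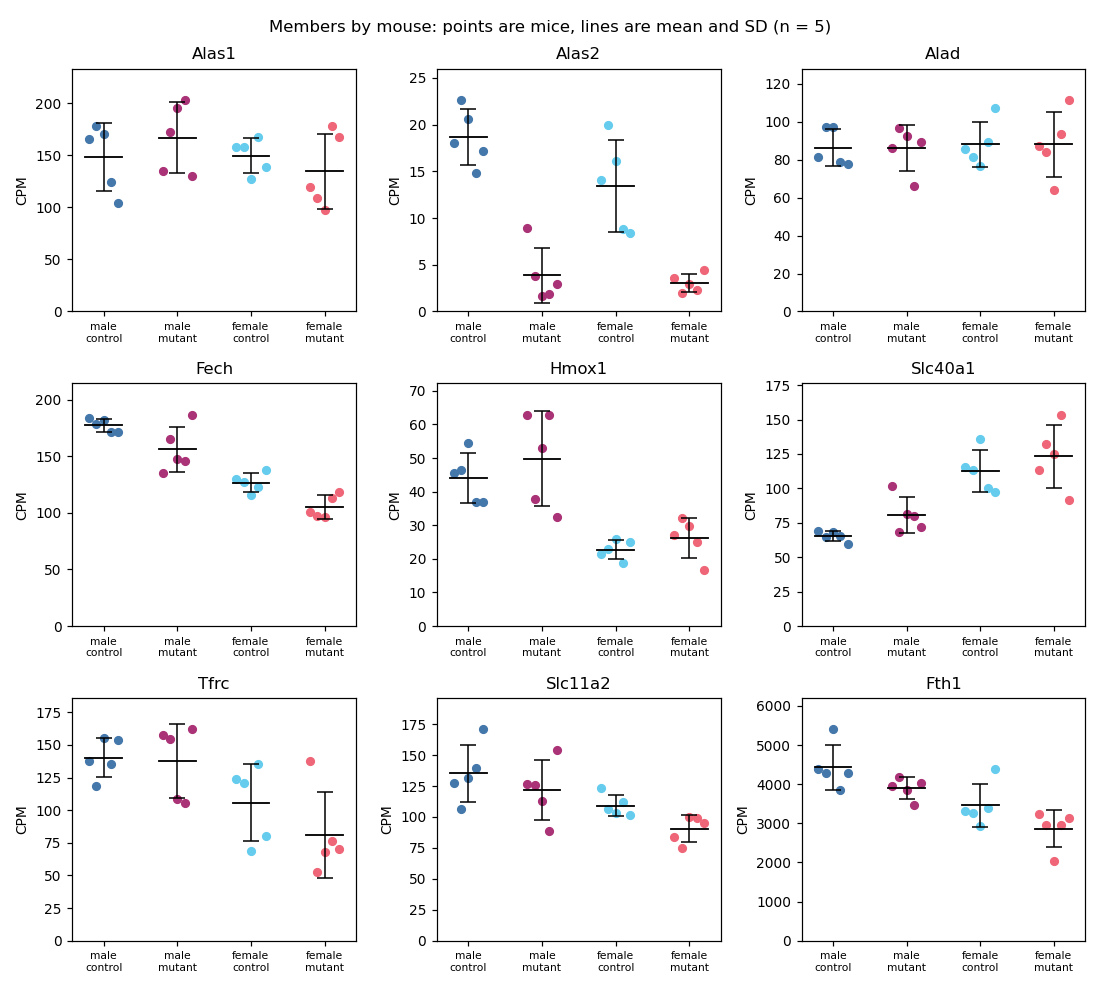
CPM (y axis, from 0) of each of the 9 members in the 4 groups (x axis); each point is 1 mouse, and lines show the mean and SD (n = 5). *Alas2* sits lower in mutants of each sex, *Hmox1* and *Fech* sit higher in males, and *Slc40a1* sits higher in females.

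*Alas2* was lower in every mutant than in every control of the same sex. In male controls it had 18.1, 22.6, 20.6, 14.9 and 17.2 CPM in MC1 to MC5. In male mutants it had 8.99, 3.76, 1.64, 1.91 and 2.99 CPM in MM1 to MM5. The male mutant with the highest level, MM1, still lay below the lowest male control.

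In female controls *Alas2* had 14.1, 20.0, 16.1, 8.81 and 8.35 CPM in FC1 to FC5. In female mutants it had 3.58, 1.98, 2.99, 2.33 and 4.47 CPM in FM1 to FM5. The groups did not overlap within a sex, but MM1 lay above FC4 and FC5 when the sexes were set together. The log2 fold change was -2.19 (SE 0.268) in males, a 4.56-fold lower level, and -2.11 (SE 0.315) in females, a 4.32-fold lower level. These values chose the gene.

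Taken litter by litter (A, B, C), the mean log2 CPM of *Alas2* in mutants minus that in controls was -1.78, -2.98 and -2.47 in males. In females it was -1.94, -2.50 and -0.88. Litter C held 1 mouse in each group, and these differences carry no error. In bulk kidney RNA, fewer cells that make a transcript and less of it per cell cannot be told apart.

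Since *ALAS2* is the form of red cell precursors, the markers of that lineage are given beside it, 24 of a list of 26 being in the table. The 6 adult globin genes searched (*Hba-a1*, *Hba-a2*, *Hbb-bs*, *Hbb-bt*, *Hbb-b1* and *Hbb-b2*) were listed at 0 in all 20 libraries, although adult kidneys hold blood, and the reason was not tested. *Klf1* and *Tal1*, transcription factors of the lineage, had overlapping ranges: 1.80 to 3.24 CPM in male controls and 0.791 to 2.36 in male mutants for *Klf1*, and 1.93 to 3.68 and 2.10 to 3.24 for *Tal1*.

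*Slc4a1*, the anion exchanger of red cells and of acid-secreting collecting duct cells, fell with *Alas2* (joint log2 fold change -1.26, SE 0.179, edgeR quasi-likelihood adjusted p = 6.32e-05). Of the list, 7 genes could be tested in all mice with a median log2 fold change of -0.41. Besides *Alas2*, which was in the list, *Slc4a1* and *Bpgm* were lower, where 5.86% of all genes tested were, and none was higher. Of 11 collecting duct markers, 6 were lower in all mice, where 5.86% of all genes tested were, and none was higher. *Slc4a9* was among the 6, at a log2 fold change of -0.88 (SE 0.164, adjusted p = 6.84e-04). It is not a defining marker of the list, and its fall was the largest of the 11 in each sex. Of the defining markers, *Aqp2* had -0.04 (SE 0.170) in males and 0.24 (SE 0.198) in females, with no call. *Atp6v1b1* had -0.55 (SE 0.122) in males and -0.53 (SE 0.173) in females, called in males only. The summed level of the red cell list without *Alas2* was 131 to 143 CPM in male controls and 82.1 to 97.3 in male mutants. It was 140 to 165 CPM in female controls and 76.7 to 133 in female mutants. *Slc4a1*, which is in that sum, had 43.6 to 60.3 CPM in male controls and 12.15 to 24.7 in male mutants. In females *Slc4a1* had 59.1 to 85.7 CPM in controls and 15.7 to 56.4 in mutants, so it carried much of the fall. The part of these markers in the *Alas2* difference was not tested.

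**Figure D2:**
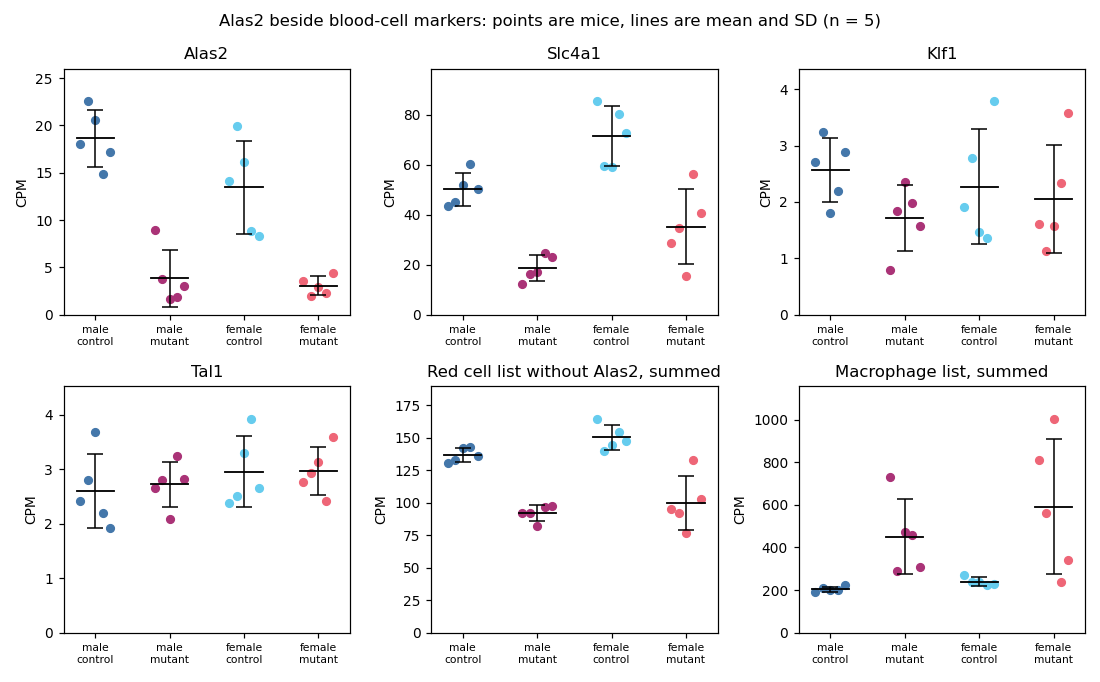
CPM (y axis, from 0) of *Alas2*, 3 red cell lineage markers, the summed red cell list without *Alas2* and the summed macrophage list in the 4 groups (x axis); points are mice, and lines show the mean and SD (n = 5). *Slc4a1* and the red cell list sit lower in mutants of each sex, *Klf1* and *Tal1* overlap between groups, and the macrophage sum sits higher in mutants of each sex except in FM4.

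Among the other 8 members the mutant kidneys differed little from controls. Only *Fech* was called in all 20 mice, at an adjusted p under 0.01. It was lower in mutants by a log2 fold change of -0.22 (SE 0.0565, edgeR quasi-likelihood adjusted p = 0.00711), a 1.17-fold lower level. Across all genes tested in that comparison 15.9% were called, 5.86% as lower and 10.0% as higher in mutants, so 1 of 8 is near the background.

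*Fech*, on the minus strand of chromosome 18 at 64452914 to 64490251 (GRCm38), had 184, 178, 182, 172 and 171 CPM in male controls MC1 to MC5. Male mutants MM1 to MM5 had 135, 165, 148, 146 and 187 CPM, and the groups overlapped only through MM5. Female controls FC1 to FC5 had 130, 127, 116, 123 and 138 CPM, and female mutants FM1 to FM5 had 101, 96.9, 96.1, 113 and 119 CPM. FM5 lay above FC3, so these groups overlapped too. The difference was lower in mutants in 5 of the 6 litter-by-sex pairs, the exception being the single male pair of litter C at 0.12 on the log2 scale. The call was lost when any of 14 of the 20 mice was left out, with the adjusted p at up to 0.0183 without MC4, and it was lost with no filter on low counts (adjusted p = 0.0107).

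Within males none of the other 8 members was called by edgeR, where 8.46% of all genes tested were. *Slc40a1* had the lowest p, with a log2 fold change of 0.30 (SE 0.0971, adjusted p = 0.0462). Within females none of the 8 was called, where 0.637% of all genes were. In each sex 2 of the 8 had an unadjusted p under 0.05 and DESeq2 called 0 of the 8. Without FM4, calls over all genes in females went from 92 to 866. Males, females and all mice share libraries, so these counts are not independent of each other.

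*Slc40a1* carries iron out of cells and had 68.8, 64.9, 68.4, 65.7 and 59.7 CPM in male controls MC1 to MC5. Male mutants MM1 to MM5 had 102, 68.3, 81.2, 80.0 and 71.8 CPM, with the lowest mutant just below the highest controls. The mutants were higher in all 3 litters, by 0.27 to 0.31 on the log2 scale. Leaving out MM2 brought the adjusted p to 0.00401 and leaving out MM1 to 0.162. In all mice the log2 fold change was 0.21 (SE 0.0770, adjusted p = 0.048), which did not pass.

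Macrophages, which recycle red cell iron through *Slc40a1* and *Hmox1*, had their markers move in mutants. The 14 macrophage markers summed to 189.8 to 222 CPM in male controls and 290.2 to 731 in male mutants, and to 224 to 273 CPM in female controls and 239 to 1005 in female mutants, with none of the defining markers at 0 throughout. In all mice 9 of the 11 tested were called as higher, where 10.0% of all genes were, and none as lower. Within females alone edgeR called 0 of the 11, although all 11 had an unadjusted p under 0.05. Of these *Mertk* was lower in female mutants (log2 fold change -0.36) and the others were higher. MM1, highest of the male mutants for *Slc40a1*, was also the highest of them for the macrophage sum. FM4, lowest of the female mutants for that sum, was the highest of them for *Slc40a1* at 153 CPM. The part of these cells in the *Slc40a1* values was not tested.

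The iron importers and ferritin had joint log2 fold changes below 0 that did not pass: -0.20 (SE 0.0778, adjusted p = 0.0646) for *Slc11a2*, -0.20 (SE 0.0867, adjusted p = 0.0965) for *Fth1* and -0.21 (SE 0.131, adjusted p = 0.255) for *Tfrc*. *Slc11a2* in females did not overlap between genotypes, at 74.9 to 99.8 CPM in mutants and 102 to 123 in controls, yet its adjusted p was 0.235. The share of all genes that separate in this way was not counted, so the lack of overlap is a description. *Tfrc* varied most among female mutants, from 52.9 to 137 CPM, with FM1 of litter A at the top and the highest of the others at 76.1. The remaining members were close to 0: 0.17 (SE 0.120) for *Hmox1*, 0.02 (SE 0.0739) for *Alad*, which makes porphobilinogen, and -0.0032 (SE 0.122) for *Alas1*.

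**Figure D3:**
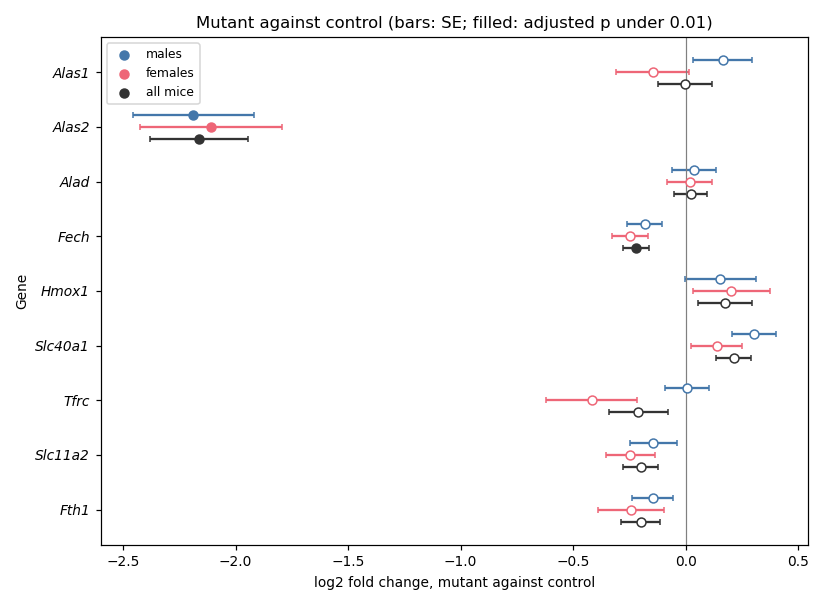
log2 fold change, mutant against control (x axis), of the 9 members (y axis) in males, females and all mice; bars are the SE and filled points had an adjusted p under 0.01. *Alas2*, which was chosen by this difference, lies near -2 in each, *Fech* is filled only for all mice, and all other points lie within 0.5 of 0.

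Whether the genotype difference itself differed between sexes was asked with a sex-by-genotype term in all 20 mice. No member was called and 0% of 14820 genes were, by edgeR; 618 genes had an unadjusted p under 0.05 and DESeq2 called 18. The term, male minus female on the log2 scale, was -0.07 (SE 0.445) for *Alas2* and 0.45 (SE 0.247, adjusted p = 1) for *Tfrc*, the largest of the members. The male and female falls of *Alas2* were therefore not shown to differ, and the SE leaves differences of nearly 1 on the log2 scale unresolved.

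Between the sexes, control males had more *Fech* and *Hmox1* and less *Slc40a1* than control females, 3 of 9 members called where 17.8% of all genes tested were, 8.75% as higher and 9.02% as lower in males. In mutants *Fech* and *Hmox1* were called, 2 of 9, where 5.42% of genes were, 3.59% as higher and 1.84% as lower in males. The median log2 fold change over the 9 members, male against female, was 0.36 in controls and 0.40 in mutants, beside -0.01 and -0.03 over all genes tested.

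*Hmox1*, the stress-induced enzyme that opens the heme ring, lies on the plus strand of chromosome 8 at 75093621 to 75100589. It had 45.7, 46.5, 54.5, 36.8 and 36.9 CPM in male controls MC1 to MC5, and 21.4, 22.9, 25.9, 18.6 and 24.9 CPM in female controls FC1 to FC5. Male mutants MM1 to MM5 had 62.9, 37.8, 53.1, 62.8 and 32.4 CPM, and female mutants FM1 to FM5 had 27.1, 32.1, 29.7, 25.1 and 16.6 CPM. Every one of the 10 males lay above every one of the 10 females, the nearest being MM5 and FM2.

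The log2 fold change of *Hmox1*, male against female, was 0.89 (SE 0.130, edgeR adjusted p = 3.14e-04) in controls, a 1.86-fold higher level. In mutants it was 0.98 (SE 0.141, adjusted p = 0.00162), a 1.97-fold higher level. Males were higher in all 3 litters, by 0.56 to 1.19 in controls and 0.84 to 1.00 in mutants. The call in mutants was lost when any of 4 of the 10 mutants was left out, with the adjusted p at up to 0.0124 without FM1, and without the litter term (adjusted p = 0.0113).

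*Fech* was higher in males than in females without overlap in either genotype. The log2 fold change was 0.48 (SE 0.0632, edgeR adjusted p = 1.36e-04) in controls, a 1.40-fold higher level, and 0.58 (SE 0.0992, adjusted p = 0.00421) in mutants, a 1.49-fold higher level. The difference held in all 3 litters, at 0.31 to 0.49 in controls and 0.53 to 0.65 in mutants. In mutants it was lost when any of 6 of the 10 was left out, with the adjusted p at up to 0.033 without FM1.

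*Slc40a1* ran the other way. Female controls FC1 to FC5 had 116, 114, 136, 101 and 97.3 CPM, all above the male controls. The log2 fold change, male against female, was -0.74 (SE 0.0895, edgeR adjusted p = 7.72e-05) in controls, a 1.67-fold lower level in males, and it was -0.70 to -0.82 in the 3 litters. Female mutants FM1 to FM5 had 114, 132, 125.2, 153 and 91.4 CPM, and overlapped the male mutants through MM1. In mutants the value was -0.57 (SE 0.134, adjusted p = 0.0192), which did not pass. It did pass with DESeq2 (adjusted p = 0.00121) and with edgeR in 1 fit of all 20 mice (adjusted p = 4.47e-04). Those settings called 1959 and 2353 genes in all, against 782 in the main fit.

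*Tfrc*, *Slc11a2* and *Fth1* were higher in males on average without a call. In controls the log2 fold changes, male against female, were 0.45 (SE 0.189, adjusted p = 0.0965), 0.36 (SE 0.115, adjusted p = 0.0332) and 0.32 (SE 0.110, adjusted p = 0.045), in that order. In mutants they were 0.67 (SE 0.154, adjusted p = 0.0171), 0.40 (SE 0.146, adjusted p = 0.0926) and 0.42 (SE 0.148, adjusted p = 0.0844). The *Fth1* groups of mutants did not overlap, at 3464 to 4194 CPM in males and 2048 to 3232 in females. DESeq2 called *Tfrc* and *Fth1* between the sexes in mutants, where it called 1959 of 14416 genes. *Alas2* was not called between sexes, at 0.50 (SE 0.235, adjusted p = 0.136) in controls and -0.11 (SE 0.356, adjusted p = 0.866) in mutants, nor were *Alas1* and *Alad*.

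Markers of other cells differed between the sexes too. The 15 proximal tubule markers summed to 55688 to 67787 CPM in male controls and 27361 to 36084 in female controls, and to 46522 to 65809 and 13380.3 to 30442 CPM in mutants. Genes with a strong male bias, such as *Kap*, carried much of that sum. The median log2 fold change of the 15, male against female, was 0.14 in controls and 0.20 in mutants. In controls 6 of the 15 were called as higher and 1 as lower, beside 8.75% and 9.02% of all genes tested. The macrophage sum was 189.8 to 222 CPM in male controls and 224 to 273 in female controls. All 8 endothelial markers were lower in control males, beside 9.02% of all genes tested, at 369 to 451 CPM summed against 553 to 648. Of 9 thick limb and distal tubule markers, 7 were lower in control males, at 8981 to 9624 CPM summed against 12822 to 13666. In all mice 8 of these 9 were lower in mutants, where 5.86% of all genes tested were. None of the defining markers of these lists was at 0 throughout. Their part in the values of *Fech*, *Hmox1* and *Slc40a1* was not tested.

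**Figure D4:**
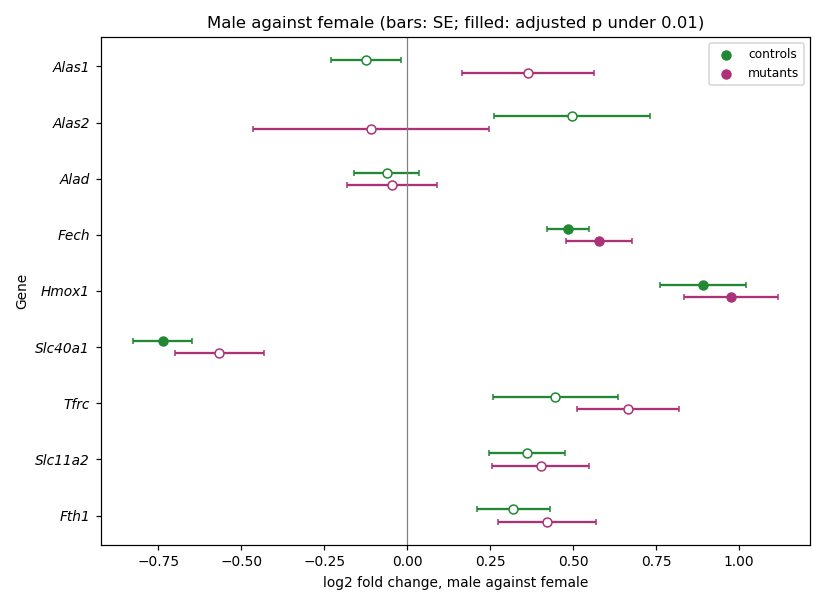
log2 fold change, male against female (x axis), of the 9 members (y axis) in controls and in mutants; bars are the SE and filled points had an adjusted p under 0.01. *Hmox1* and *Fech* lie above 0 in both genotypes, and *Slc40a1* lies below 0 and is filled only in controls.

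The wider pathway was described with 7 lists of 89 genes, 83 of them in the table and 77 tested in all mice. With *Alas2* set aside, 11 of 76 were called (14.5%, beside 15.9% of all genes tested). Of these, 2 were higher (2.63%, beside 10.0%) and 9 were lower (11.8%, beside 5.86%), with no test of either share. The median of those 76 was -0.12 on the log2 scale beside -0.01 for all genes tested. Leaving out 1 mouse moved the full count of 12, *Alas2* included, between 8 and 16, the last without FM4. Calls over all genes moved as well, from 2252 to 1656 without MC4 and to 2994 of 14274 without FM4.

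Genes that rose were *Lcn2*, the siderophore-binding lipocalin of injured tubules, and *Cp*, the ferroxidase ceruloplasmin. *Lcn2* went from 1.86 ± 0.783 to 58.8 ± 44.8 CPM (SD, n = 5) in males and from 3.03 ± 1.17 to 73.7 ± 67.0 CPM (SD, n = 5) in females, a joint log2 fold change of 4.60 (SE 0.523, edgeR adjusted p = 9.56e-06). *Cp* had a joint log2 fold change of 1.10 (SE 0.212, adjusted p = 8.79e-04). *Lcn2* is also in the tubule injury list, of whose 9 genes 8 were higher in mutants, where 10.0% of all genes tested were.

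Genes that fell belonged to 5 lists, where 5.86% of all genes tested were called as lower. Of the 9 heme synthesis enzymes, *Ppox*, the step before *Fech*, fell by 0.34 on the log2 scale (SE 0.0876, edgeR adjusted p = 0.00812) besides *Alas2* and *Fech*. In iron uptake, 3 of 13 fell: *Scara5*, a ferritin receptor, by 0.96 (SE 0.206, adjusted p = 0.00208), the metal importer *Slc39a8* by 0.50 (SE 0.0870, adjusted p = 3.59e-04) and the lipocalin receptor *Slc22a17* by 0.30 (SE 0.0800, adjusted p = 0.0096). The heme-binding *Hebp1* fell by 0.45 (SE 0.0745, adjusted p = 2.25e-04), 1 of 12 in heme uptake, export and breakdown. In iron-sulfur cluster assembly, 2 of 12 fell: the cysteine desulfurase *Nfs1* by 0.38 (SE 0.0685, adjusted p = 5.32e-04) and *Iba57* by 0.34 (SE 0.0638, adjusted p = 6.83e-04). None of the 8 genes of heme precursor and mitochondrial iron transport was called by edgeR, where 2 had an unadjusted p under 0.05.

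Among the regulators, *Aco1*, which makes iron regulatory protein 1, fell by 0.30 on the log2 scale (SE 0.0765, edgeR adjusted p = 0.00741), the only 1 of 15 called in iron and oxygen sensing. *Ireb2*, which makes iron regulatory protein 2, had a log2 fold change of -0.02 (SE 0.0715, adjusted p = 0.842). *Ftl1*, the ferritin light chain, had -0.18 (SE 0.0924, adjusted p = 0.169) and *Tfr2*, the second transferrin receptor, 0.67 (SE 0.332, adjusted p = 0.149) at no more than 41 counts in any mouse. *Hamp*, the iron hormone hepcidin, was at 0 in 19 of 20 libraries and at 8 counts in MM5. *Epo*, the red cell growth factor made by interstitial cells, had at most 7 counts in any mouse. Both were too low to test.

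**Figure D5:**
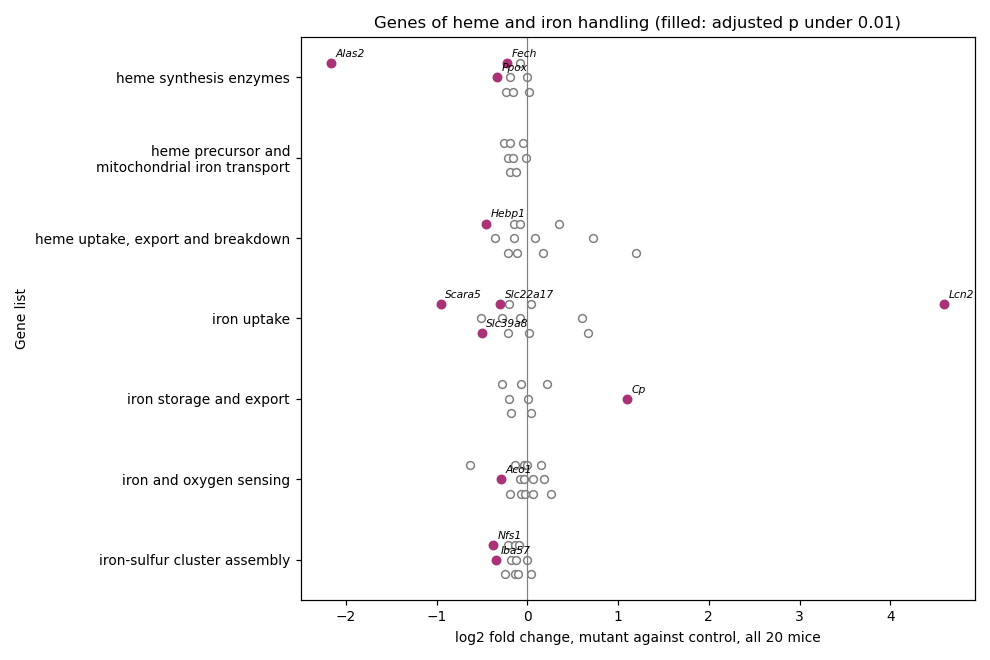
log2 fold change, mutant against control in all 20 mice (x axis), of the tested genes of 7 heme and iron lists (y axis); each point is a gene, and filled points had an adjusted p under 0.01. *Lcn2* and *Cp* lie to the right, *Alas2* lies farthest to the left, and most points lie within 0.5 of 0.

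Between the sexes 19 of 76 pathway genes were called in controls, 10 as higher in males (13.2%, beside 8.75% of all genes tested) and 9 as lower (11.8%, beside 9.02%). In mutants 7 of 77 were called, 5 as higher and 2 as lower (9.09%, beside 5.42%). *Cpox*, which makes protoporphyrinogen, was higher in males beside *Fech*, at 179 ± 8.39 against 77.4 ± 4.54 CPM (SD, n = 5) in controls, and this gene was chosen after its values were seen. Its log2 fold change, male against female, was 1.26 (SE 0.0662, edgeR adjusted p = 4.39e-08) in controls and 1.37 (SE 0.122, adjusted p = 6.01e-05) in mutants. Chosen by the same difference, the gene has these values as a description only. Larger control differences in the same lists ran the other way, also picked by their values. *Tmprss6* had -6.10 (SE 0.366) in controls and -4.13 (SE 0.543) in mutants, and *Steap3* had -1.51 (SE 0.101) and -1.28 (SE 0.137). *Cp* was lower in control males by a log2 fold change of -1.74 (SE 0.0663, adjusted p = 3.00e-09). In mutants the value for *Cp* was -0.75 (SE 0.317, adjusted p = 0.14), which did not pass.

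Within the 10 mutants each member was set against KBW, the kidney weight as a percentage of body weight, with sex in the fit. KBW ran from 1.22 to 2.15% in male mutants and from 0.836 to 1.46% in female mutants. No gene was called by edgeR, 0% of 14416, while 3212 had an unadjusted p under 0.05 and DESeq2 called 577, none of them a member. In simulated counts the edgeR fit called 4 of 200 genes (2%) given a slope of 1 on the log2 scale per percentage point. The lack of calls therefore says little about slopes of that size. *Alas1* had the lowest p of the members, with a slope of -0.81 on the log2 scale per percentage point (SE 0.266, adjusted p = 0.11), and without sex in the fit the slope was -0.11. The slope of *Alas2* was 1.01 (SE 0.667, adjusted p = 0.399), and it was -0.64 without MM1, the mouse with the largest kidney and the most *Alas2* of the mutants.

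Likeness to other genes was taken over the 20 mice after the mean of each group was removed from log2 CPM, among 13758 genes with a mean of at least 1 CPM. All values are descriptions, and the libraries, their depth and their litters are shared. The gene most like *Alas2* was *Mir568* (Spearman rho = 0.752), followed by *Dhx35* (0.717) and *Rps6ka5* (0.716), with *Spred3* (0.657) and *Asap3* (0.656) next. For *Hmox1* the 5 were *Fhl2* (0.875), *Sulf2* (0.868), *Tmem119* (0.865), *Rhob* (0.860) and *Ephx1* (0.856). For *Slc40a1* they were *Zwilch* (0.869), *Fam49b* (0.829), *Npl* (0.794), *Zfp459* (0.792) and *Ipo5* (0.786).

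For *Tfrc* the 5 most alike were *Tpd52* (0.761), *Dars* (0.714), *Micu2* (0.714), *Scfd1* (0.708) and *Lamp2* (0.707). Among the members themselves *Alad* and *Fth1* were the most alike (0.777), then *Alad* and *Fech* (0.632) and *Hmox1* and *Slc40a1* (0.614). *Fech* and *Hmox1* ran opposite to each other within groups (-0.692). *Alas2* was not close to any other member, its largest value being 0.328 with *Tfrc*.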

How the data were processed

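Kidney RNA of 20 mice had been sequenced, and the deposited values are whole-number read counts per gene symbol, made by the authors without normalization. Per the labels and the submitters' processing notes, trimming was done by fastp (0.23.2) and alignment to the mm10 build by STAR (2.7.10b). The counting tool, annotation and strandedness are not given in the sources used here. Within-group library pairs all differed by more than sampling noise, with a chi-square per degree of freedom of at least 5.48.

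Members and lists were chosen with earlier results of these data known. Counts were analyzed with edgeR 4.0.16 in R 4.3.3: TMM normalization, filterByExpr, and the quasi-likelihood test with Benjamini-Hochberg adjustment over all genes tested, called at an adjusted p under 0.01. Comparisons within a sex or genotype had litter as a covariate, those of all mice the 6 groups of sex and litter, and KBW slopes had sex. CPM used TMM library sizes, and log2 CPM a prior count of 2. The SE is the log2 fold change divided by the root of F. A gene's exon length was the union of its GENCODE vM21 exons. Scripts were tested on simulated data.

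Named were the 9 members, genes of the 7 lists called in all mice (up to 3 in each direction per list), *Aco1*, *Ireb2*, *Hamp*, *Tfr2*, *Ftl1*, *Epo*, markers, *Pkd2* and the 5 genes most like *Alas2*, *Hmox1*, *Slc40a1* and *Tfrc*. Outside this rule *Cpox*, *Tmprss6* and *Steap3* were named after their values between the sexes were seen. Some markers besides the defining ones, such as *Slc4a9*, were named too. *Flvcr1*, *Flvcr2*, *Tf*, *Hjv*, *Erfe*, *Ciao2b*, *Epb42* and *Ahsp* were not analysed here, and some red cell markers are not reported here. Alternatives were DESeq2 1.42.0 size factors and Wald test, no filter, at least 10 counts in every mouse, other covariates, 1 fit of all mice and each mouse left out. Each library came from a separate mouse, so p-values measure the spread between these mice.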

Additional observations from a re-analysis of the deposited data

Results flagged for a closer look

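*Fth1* in FM3 lay apart from the other 4 female mutants at 2048 CPM, against 2954 to 3232 CPM in the others, with a gap of 0.803 of the group's range on the log2 scale where 0.71 is the 95% limit for 5 samples. It was the 1 value past that limit among 36 groups of 5 mice tested, and chance gives about 1 in 20. FM3 also had the highest KBW of the female mutants (1.46%), the highest macrophage sum (1005 CPM) and the lowest proximal tubule sum (13380.3 CPM) of them. The part of these in the value was not tested.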

How the results depend on the processing

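Of the counts of members called, 2 in all mice became 1 with no filter on low counts, and 2 between the sexes in mutants became 5 with DESeq2's Wald test and 1 without the litter term. Between the sexes in mutants DESeq2 called 1959 of 14416 genes, against 782 by edgeR. With a mouse left out, members called ran from 1 to 2 in males, 0 to 1 in females, 1 to 2 in all mice, 3 to 4 between the sexes in controls and 0 to 3 in mutants. The counts between genotypes include *Alas2*, which was chosen by that difference, so they say nothing of its stability. Over all genes, calls went from 92 in females to 928 with DESeq2 and to 3 without FC2, from 1185 in males to 2001 with DESeq2 and to 187 without MC4, and from 782 between the sexes in mutants to 2353 in 1 fit of all mice and to 246 without FM1. In controls they went from 2510 to 1223 without MC4. The causes were not tested.

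The log2 values below turned sign, and none of them belonged to a call. *Alad* turned in males without litter (-0.0099), in females with no filter (-0.0052) and in 1 fit of all mice (-0.00327), between control sexes without litter (0.017) and in the sex-by-genotype term with sex alone (-0.0048). *Tfrc* in males (-0.033), *Alas1* in all mice (0.0099) and *Alas1* between control sexes (0.029) turned without litter, as did *Alas2* between mutant sexes (0.34, and 0.11 in 1 fit of all mice). KBW slopes turned without a covariate for *Fech* (0.34), *Slc40a1* (-0.42), *Slc11a2* (0.39) and *Fth1* (0.30), and for *Slc11a2* with at least 10 counts in every mouse (0.00828) and with sex and litter (0.026).

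With a mouse left out, the log2 values that changed sign ran as follows. In males, *Hmox1* ran from -0.024 to 0.31, *Alad* from -0.021 to 0.090, *Tfrc* from -0.057 to 0.15 and *Alas1* from -0.025 to 0.31. *Alad* ran from -0.041 to 0.076 in females and from -0.0067 to 0.050 in all mice, where *Alas1* ran from -0.10 to 0.045. Between the sexes *Alad* ran from -0.17 to 0.055 in controls and from -0.15 to 0.021 in mutants, where *Alas2* ran from -0.49 to 0.028. The sex-by-genotype term ran from -0.20 to 0.14 for *Hmox1*, -0.046 to 0.14 for *Fech*, -0.056 to 0.11 for *Alad* and -0.60 to 0.24 for *Alas2*. KBW slopes ran from -0.35 to 0.0064 for *Fth1*, -0.081 to 0.090 for *Slc11a2*, -0.032 to 0.62 for *Slc40a1*, -0.64 to 1.79 for *Alas2* and -0.090 to 0.63 for *Tfrc*.

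Of the 20 genes named as most like *Alas2*, *Hmox1*, *Slc40a1* or *Tfrc*, 6 stayed among the first 5 without FM4 (1 each for *Hmox1* and *Slc40a1*) and 7 with Pearson's r, so the names depend on both choices. No paired analysis was possible because replicate numbers were given in accession order and pair no mice, and litter is in the fit already. The median depth of 15813304.5 counts left *Hamp* and *Epo* too low to test.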
